A study of Homo sapiens with 4 samples.

Results

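The 38 genes described here encode the enzymes that charge transfer RNA in NUGC3, a cell line from a human gastric cancer, and 2 proteins that hold some of those enzymes together. They were chosen by gene name, as 20 cytosolic aminoacyl-tRNA synthetase genes, 16 mitochondrial ones (symbols that end in 2) and the scaffold genes AIMP1 and AIMP2, of 53777 genes with an Ensembl identifier. RNA was sequenced from 2 libraries of cells transfected with short hairpins against NIPBL, 1 library with hairpin 1 and 1 with hairpin 7, and from 2 libraries of cells given a scramble hairpin. NIPBL loads the cohesin ring onto chromosomes, and the comparison asks which transcripts differ when it is lowered. All 4 labels carry the letters DOX, which they do not explain, and the second scramble label adds to the first a suffix that may mark a repeat. Separate cultures are not stated for either group, so p-values cover no more than the spread among these libraries. That spread may be technical in the scramble pair, and in the knockdown pair it includes any difference between the hairpins.

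Aminoacyl-tRNA synthetases join each amino acid to its matching tRNA with the energy of ATP, the step that sets the genetic code. Cytosolic and mitochondrial translation mostly use separate enzymes, all encoded in the nucleus. KARS and GARS are exceptions, since each gene is known to give both a cytosolic and a mitochondrial enzyme. Several cytosolic enzymes sit in a multi-synthetase complex around the scaffold proteins AIMP1, AIMP2 and EEF1E1. When amino acids run short, uncharged tRNA activates the kinase EIF2AK4 (GCN2), which favours synthesis of the transcription factor ATF4, and ATF4 is known to induce many cytosolic synthetase genes.

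Levels are the authors' FPKM, which divide read abundance by transcript length and by library size, so they can be compared between genes. Log2 changes are differences of mean log2(FPKM + 1), NIPBL knockdown minus scramble, tested with limma over the 12834 genes whose mean reached 1 FPKM, and a gene passed at an adjusted p under 0.05 (Benjamini-Hochberg). All 38 genes cleared that filter. Over all gene rows the summed FPKM was 685330 with hairpin 1 and 618833 with hairpin 7, against 676445 and 668847 in the scramble libraries, and the read depth is unknown. The targeted gene NIPBL was at 7.27 FPKM with hairpin 1 and 9.17 FPKM with hairpin 7, against 23.9 and 23.1 FPKM in the scramble libraries, and it passed (log2 change -1.42 ± 0.14, SE, limma, adjusted p = 0.0218). That call was lost without scramble 1 (adjusted p = 0.257) or without scramble 2 (adjusted p = 0.262). The epithelial marker genes EPCAM, CDH1, KRT8, KRT18, KRT19 and CLDN4 were each at 54.3 FPKM or more in every library. PTPRC, a marker gene of white blood cells, and the fibroblast collagen gene COL1A2 were listed at 0 in all 4 libraries. Of the 8 markers of other cell types with a row, CD68 and COL1A1 reached the filter and neither passed. CD68, a macrophage marker that other cells also express, was at 31.5 and 37.7 FPKM with hairpins 1 and 7, against 12.4 and 17.1 FPKM in the scramble libraries, and its part in the results was not tested. In bulk RNA, fewer cells of a kind and less RNA per cell cannot be told apart.

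Among the 38 synthetase and scaffold genes, 0 passed the test, while 328 of the 12834 genes tested did (2.56%), 142 as lower (1.11%) and 186 as higher (1.45%, limma). Before adjustment 9 genes were lower and 0 higher in NIPBL knockdown at p under 0.05, where 12.8% and 13.6% of all genes tested fell in those classes. Both knockdown libraries lay below both scramble libraries in 20 of the 38 genes and above them in 4, and the groups overlapped in 14. Over all genes tested, 30.8% lay below in this way and 29.5% above. Log2 changes of the 38 genes ran from -0.67 for FARSB to 0.35 for CARS2, with 29 below 0 and a median of -0.11, and over all genes tested 51.7% lay below 0 with a median of -0.01. The count of genes that passed turned on the hairpin libraries. With hairpin 7 alone against scramble, 17 of the 38 genes fell and 2 rose (limma; 19.6% and 15.7% of all genes), and with hairpin 1 alone 9 fell and 0 rose (11.6% and 11.1% of all genes), the fit then giving the lone library the spread of the scramble pair. When scramble 1 or scramble 2 was left out, 0 of the 38 and 0 genes of the table passed (limma), with 1060 and 1052 genes of the table at an unadjusted p under 0.05. With no filter on low values 5 of the 38 fell and 0 rose (2.1% and 2.69% of all rows), a fit in which most rows were 0 in every library. Among rows above 0 FPKM in a library, an alternative chosen after seeing the data, 0 members passed, and 1 gene of the table did (0.00396%).

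**Figure D1:**
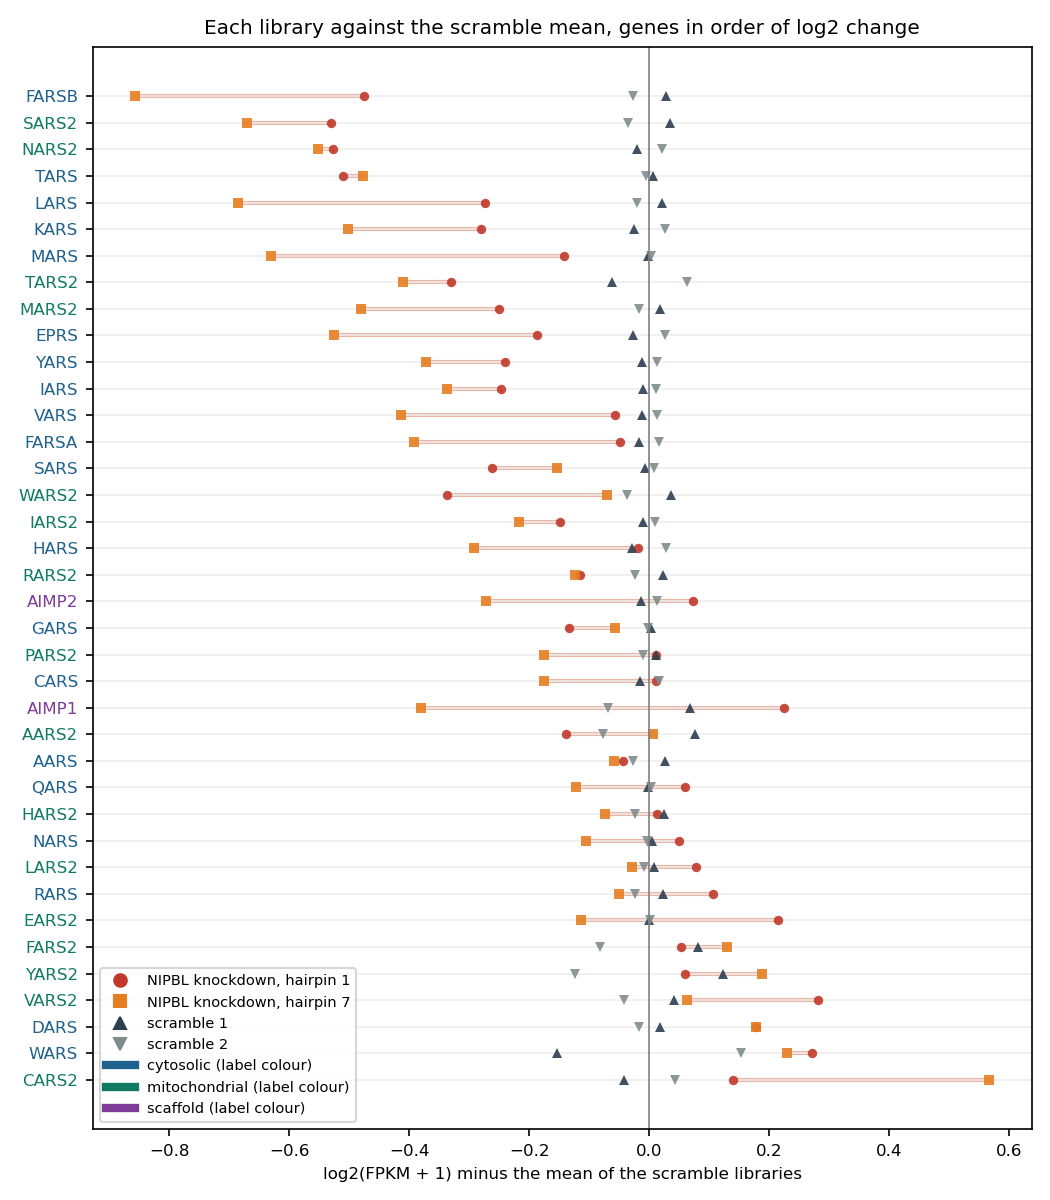
Each library's log2(FPKM + 1) minus the mean of the scramble libraries, on the x axis, for the 38 genes in order of log2 change. Circles and squares are the NIPBL knockdown libraries with hairpin 1 and hairpin 7, triangles are the scramble libraries, and label colours give the class; the lines join the hairpins, which lie below both scramble libraries in 20 genes and above both in 4.

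Among cytosolic enzymes, TARS (ENSG00000113407, chromosome 5), which charges threonine tRNA, was the most abundant of the 38. It was at 214 FPKM with hairpin 1 and 219 FPKM with hairpin 7, against 307 and 304 FPKM in the scramble libraries. The libraries within each group were close, and the groups lay well apart, with knockdown at 70.9% of scramble (log2 change -0.49 ± 0.09, SE, limma, adjusted p = 0.067). FARSB (ENSG00000116120, chromosome 2), the beta subunit of the cytosolic phenylalanine enzyme, had the lowest log2 change of the 38, at -0.67 ± 0.15 (SE, limma, adjusted p = 0.0869). It was at 72.7 FPKM with hairpin 1 and 55.6 FPKM with hairpin 7, against 103 and 99.6 FPKM in the scramble libraries. Both hairpins were low and hairpin 7 the lower. FARSA, the alpha subunit of the same enzyme, named here after its values were seen, was at 48.8 FPKM with hairpin 1 and 38.3 FPKM with hairpin 7, against 50.0 and 51.2 FPKM in the scramble libraries. In FARSA the hairpin 1 library was close to the scramble libraries and hairpin 7 stood below them (log2 change -0.22 ± 0.14, SE, limma, adjusted p = 0.371). FARSB exceeded FARSA by a ratio of 1.49 with hairpin 1 and 1.45 with hairpin 7, against 2.07 and 1.95 in the scramble libraries.

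LARS, which charges leucine tRNA and is also known as a leucine sensor for the growth kinase mTORC1, was at 49.0 FPKM with hairpin 1 and 36.6 FPKM with hairpin 7, against 60.3 and 58.6 FPKM in the scramble libraries. The groups did not overlap, and the hairpins differed more from each other than the scramble libraries did (log2 change -0.48 ± 0.16, SE, limma, adjusted p = 0.15). MARS, the methionine enzyme, was at 80.2 FPKM with hairpin 1 and 56.9 FPKM with hairpin 7, against 88.5 and 88.8 FPKM in the scramble libraries (log2 change -0.39 ± 0.18, SE, limma, adjusted p = 0.247). Here too most of the distance came with hairpin 7. IARS, the isoleucine enzyme, was at 43.7 and 40.9 FPKM with hairpins 1 and 7, against 51.6 and 52.4 FPKM in the scramble libraries, with both hairpins low to a like degree (limma, adjusted p = 0.14).

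At the other end, WARS and DARS had the highest log2 changes of the cytosolic enzymes. WARS, the tryptophan enzyme, is known to be induced by interferon. It was at 52.8 FPKM with hairpin 1 and 51.2 FPKM with hairpin 7, against 39.1 and 48.6 FPKM in the scramble libraries. The scramble libraries differed from each other more than in any other of the 38 genes, by 0.31 on the log2 scale, and the log2 change was 0.25 ± 0.13 (SE, limma, adjusted p = 0.295). DARS, the aspartate enzyme, was at 124 FPKM with both hairpins, against 111 and 108 FPKM in the scramble libraries (log2 change 0.18 ± 0.09, SE, limma, adjusted p = 0.269). The groups of DARS were narrow and apart, at 113% of scramble. AARS, the alanine enzyme, was at 67.3 and 66.6 FPKM with hairpins 1 and 7, against 70.7 and 68.1 FPKM in the scramble libraries. NARS, the asparagine enzyme, was at 90.8 and 81.5 FPKM with hairpins 1 and 7, against 88.0 and 87.5 FPKM in the scramble libraries, and its groups overlapped. The other 10 cytosolic genes had log2 changes between -0.39 for KARS and 0.03 for RARS.

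After FARSB, the lowest log2 changes were those of SARS2 and NARS2, both mitochondrial. SARS2 (ENSG00000104835, chromosome 19), which charges serine tRNA in mitochondria, was at 9.92 FPKM with hairpin 1 and 8.91 FPKM with hairpin 7, against 15.2 and 14.4 FPKM in the scramble libraries (log2 change -0.60 ± 0.11, SE, limma, adjusted p = 0.0671). NARS2 (ENSG00000137513, chromosome 11), the asparagine enzyme, was at 10.3 and 10.1 FPKM with hairpins 1 and 7, against 15.0 and 15.5 FPKM in the scramble libraries (log2 change -0.54 ± 0.10, SE, limma, adjusted p = 0.067). Both genes were at about the same level with either hairpin and lay clear of the scramble libraries, at 63.7% of scramble for SARS2 and 66.7% for NARS2. SARS2 overlaps MRPS12, a mitochondrial ribosomal protein gene on the other strand, in GENCODE 29, and reads of the overlap could not be told apart because the strand setting is not given. MRPS12 was at 28.2 and 23.7 FPKM with hairpins 1 and 7, against 28.4 and 32.2 FPKM in the scramble libraries. In the same annotation 14 of the 38 genes overlap another protein-coding gene, among them MARS with DDIT3 and HARS with HARS2. So do 4 members with high log2 changes, CARS2 with ING1, WARS with WDR25, VARS2 with GTF2H4 and YARS2 with DNM1L.

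CARS2, the cysteine enzyme of mitochondria, had the highest log2 change of the 38, at 0.35 ± 0.16 (SE, limma, adjusted p = 0.251). It was at 42.5 FPKM with hairpin 1 and 57.5 FPKM with hairpin 7, against 37.4 and 39.7 FPKM in the scramble libraries, so that hairpin 7 alone stood far above the rest. VARS2 was at 17.0 and 14.5 FPKM with hairpins 1 and 7, against 14.2 and 13.4 FPKM in the scramble libraries, and the lower hairpin library lay next to the higher scramble library. YARS2 was at 14.6 and 16.04 FPKM with hairpins 1 and 7, against 15.3 and 12.7 FPKM in the scramble libraries, and its groups overlapped. WARS2 was at 4.75 and 5.92 FPKM with hairpins 1 and 7, against 6.45 and 6.08 FPKM in the scramble libraries, with hairpin 1 the lowest. MARS2 was at 3.50 and 2.84 FPKM with hairpins 1 and 7, against 4.42 and 4.29 FPKM in the scramble libraries (limma, adjusted p = 0.216). IARS2, the most abundant mitochondrial enzyme gene, was at 142 and 135 FPKM with hairpins 1 and 7, against 156 and 158 FPKM in the scramble libraries (limma, adjusted p = 0.27). LARS2 and AARS2 had log2 changes of 0.02 and -0.07 with overlapping groups.

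As classes, the 20 cytosolic enzymes had a median log2 change of -0.21 and the 16 mitochondrial ones of -0.07. Of the cytosolic genes 17 lay below 0, 6 were lower before adjustment (p under 0.05) and 13 had both hairpins below both scramble libraries. Of the mitochondrial genes 10 lay below 0, 3 were lower before adjustment (p under 0.05) and 7 had both hairpins below both scramble libraries. Over all genes tested these shares were 51.7%, 12.8% and 30.8%. The classes also differed in level. The median scramble mean was 66.6 FPKM for cytosolic and 13.9 FPKM for mitochondrial genes, against 12.9 FPKM over all genes tested. The part of level in the class values was not tested. Cytosolic members summed to 1568 FPKM with hairpin 1 and 1409 FPKM with hairpin 7, against 1742 and 1753 FPKM in the scramble libraries. Mitochondrial members summed to 337 and 340 FPKM with hairpins 1 and 7, against 362 and 360 FPKM in the scramble libraries. TARS weighed on the cytosolic sum, which was at 89.7% of scramble with hairpin 1 and 80.7% with hairpin 7, and at 93.9% and 82.5% without TARS. The sum over all gene rows was itself at 102% of scramble with hairpin 1 and 92.0% with hairpin 7. The lower sum with hairpin 7 does not show that most genes of the table were lower. Over all genes tested, the median log2 difference from the scramble mean was -0.03 with hairpin 7. The class medians of log2 change kept their order, cytosolic lower, under other settings. They were -0.17 for cytosolic and -0.04 for mitochondrial enzymes after rescaling to a common sum, and -0.19 and -0.12 after quantile normalization. With a pseudocount of 0.1 FPKM they were -0.22 and -0.10. With hairpin 7 left out they were -0.10 for cytosolic and -0.05 for mitochondrial enzymes, a narrower gap. The mitochondrial median was -0.04 without scramble 1 and -0.12 without scramble 2. Without KARS and GARS the cytosolic median was again -0.21, and the difference between the classes was not tested.

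**Figure D2:**
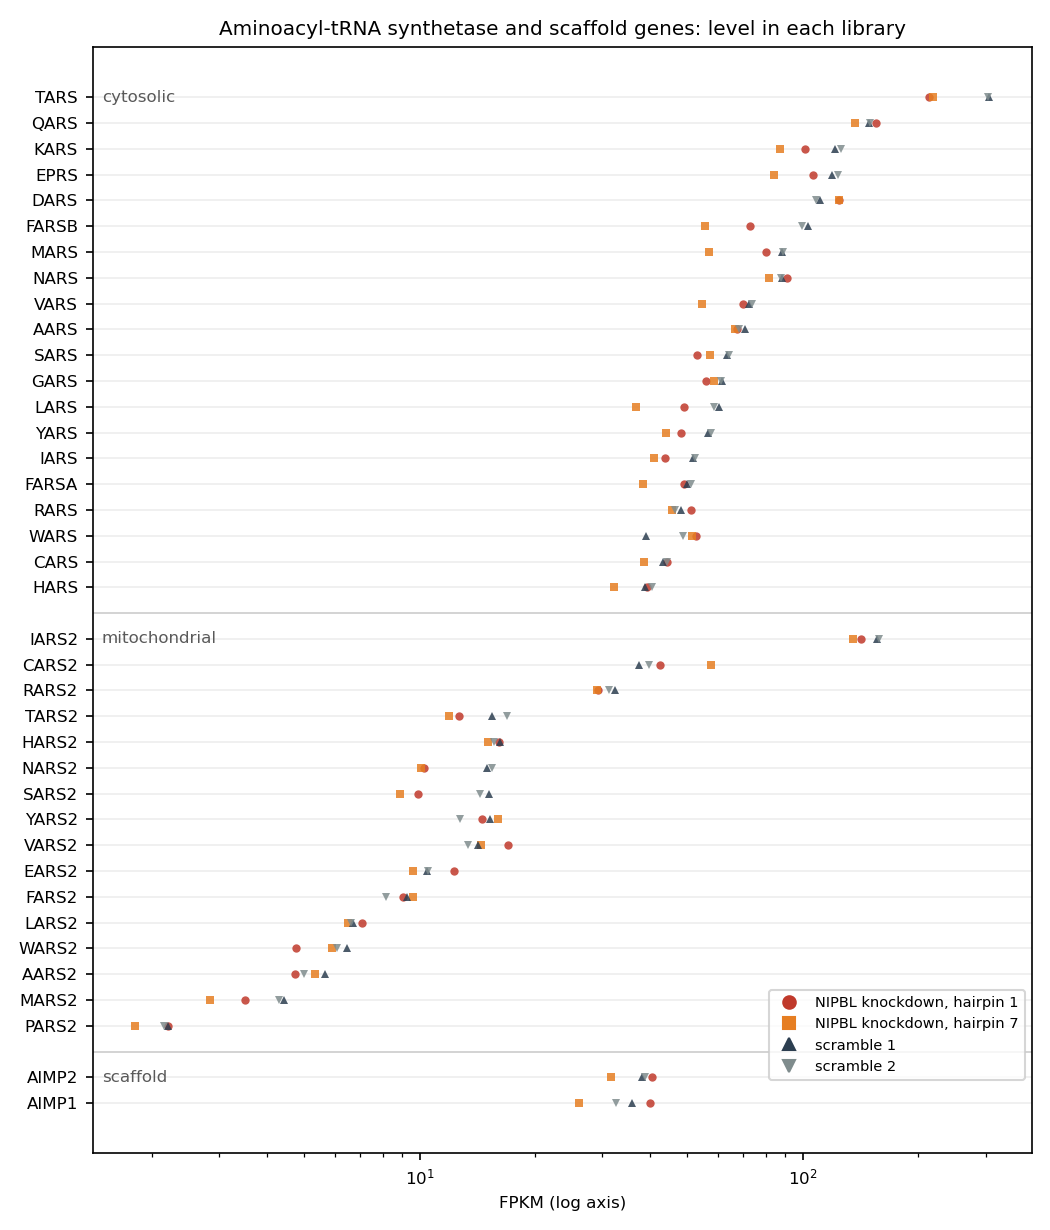
FPKM of each gene in each of the 4 libraries on a log axis, by class and in order of the scramble mean. Cytosolic enzymes had scramble means between 39.6 FPKM for HARS and 305 FPKM for TARS, and mitochondrial ones between 2.18 FPKM for PARS2 and 157 FPKM for IARS2.

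Setting the enzymes for the same amino acid side by side gave 15 pairs, with EPRS, which charges both glutamate and proline tRNA, set against EARS2 and PARS2. Phenylalanine was left out of these pairs because its cytosolic enzyme has separate subunit genes. Its FARSB minus FARS2 difference in log2 change, -0.76, was wider than any of the 15. For the other subunit, FARSA minus FARS2 was -0.31, and the FPKM ratios of the groups overlapped. The cytosolic gene had the lower log2 change in 10 pairs and the higher in 5. Methionine, counted among the 10, changed side with a pseudocount of 0.1 FPKM, at -0.39 for MARS and -0.45 for MARS2. Among the 15, the widest gaps ran in opposite directions. For asparagine, NARS over NARS2 was an FPKM ratio of 8.84 with hairpin 1 and 8.08 with hairpin 7, against 5.86 and 5.65 in the scramble libraries, since NARS2 lay lower in knockdown and NARS hardly differed. For leucine, LARS over LARS2 was 6.91 with hairpin 1 and 5.62 with hairpin 7, against 8.99 and 8.85 in the scramble libraries, with LARS the gene that lay lower. For tryptophan, WARS over WARS2 was 11.1 and 8.66 with hairpins 1 and 7, against 6.06 and 7.99 in the scramble libraries, with WARS higher and WARS2 lower in knockdown. The smallest gaps were those of alanine, methionine and isoleucine, with differences in log2 change of 0.02, -0.02 and -0.11. Methionine enzymes were both lower in knockdown, and alanine enzymes were both near their scramble level. In the scramble libraries the cytosolic gene was the more abundant in 14 of the 15 pairs. The exception was isoleucine, where IARS over IARS2 was 0.31 and 0.30 with hairpins 1 and 7, against 0.33 in both scramble libraries. In knockdown it was the more abundant in 13 pairs, because CARS over CARS2 was 1.04 with hairpin 1 and 0.67 with hairpin 7, against 1.16 and 1.11 in the scramble libraries. The differences within pairs were not tested.

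**Figure D3:**
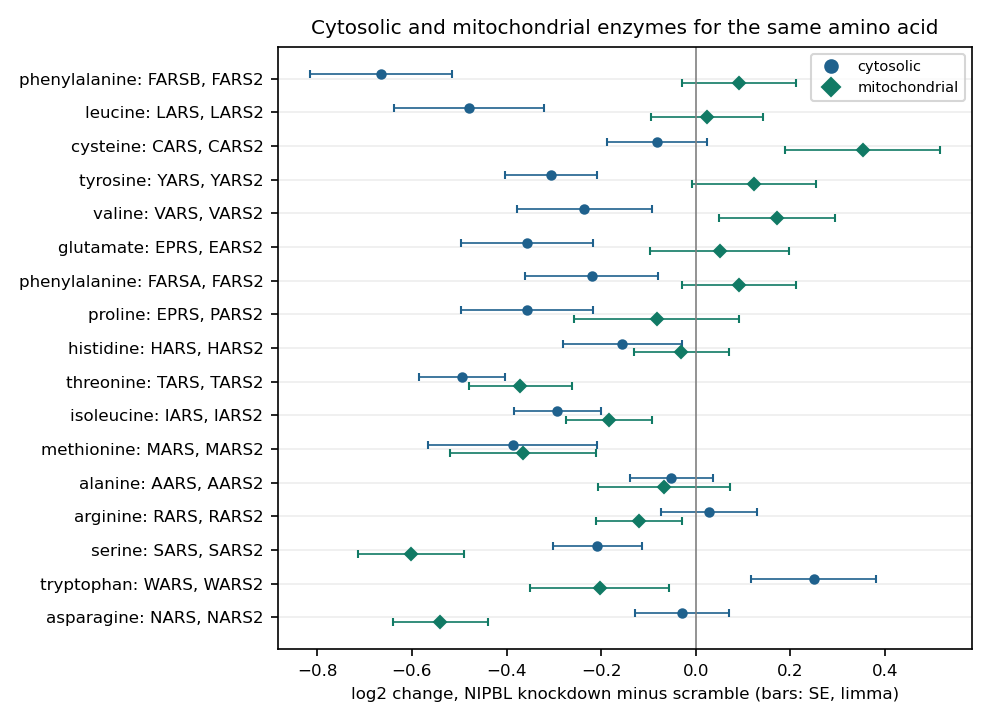
Log2 change of log2(FPKM + 1), NIPBL knockdown minus scramble, of the cytosolic enzyme gene (circles) and the mitochondrial one (diamonds) for the same amino acid, with SE from limma. Leucine and asparagine sit at opposite ends of the 15 pairs; phenylalanine is drawn once for each cytosolic subunit and was left out of the counts of pairs.

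The 8 cytosolic enzymes of the multi-synthetase complex had a median log2 change of -0.32 and the 12 outside it of -0.18. Adding the scaffold genes, the complex had 11 genes, of which 9 lay below 0, 0 passed and, before adjustment, 4 were lower at p under 0.05 (limma), where 51.7%, 2.56% and 12.8% of all genes tested fell in those classes. KARS, the lysine enzyme, was at 102 and 87.0 FPKM with hairpins 1 and 7, against 121 and 126 FPKM in the scramble libraries (log2 change -0.39 ± 0.11, SE, limma, adjusted p = 0.123). EEF1E1, the smallest scaffold subunit, was at 90.9 and 65.6 FPKM with hairpins 1 and 7, against 116 and 110 FPKM in the scramble libraries (log2 change -0.54 ± 0.17, SE, limma, adjusted p = 0.144). In both genes the knockdown libraries lay below the scramble libraries, with hairpin 7 the lower. The other scaffolds did not share that order. AIMP1, which anchors the arginine and glutamine enzymes, was at 40.0 FPKM with hairpin 1 and 26.0 FPKM with hairpin 7, against 35.8 and 32.5 FPKM in the scramble libraries. AIMP1 thus lay above the scramble libraries with hairpin 1 and below them with hairpin 7, at 0.22 and -0.38 on the log2 scale from their mean. AIMP2, on which the other subunits assemble, was at 40.4 and 31.6 FPKM with hairpins 1 and 7, against 38.01 and 38.7 FPKM in the scramble libraries. The enzymes of the complex with the highest log2 changes were DARS, RARS and QARS, at 0.18, 0.03 and -0.03.

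The hairpin 7 library lay below the hairpin 1 library in 30 of the 38 genes, or 78.9%, against 53.9% of all genes tested, with a median difference of -0.14 on the log2 scale against -0.04. AIMP1, MARS and CARS2 differed most between the hairpins, by -0.60, -0.49 and 0.43 for hairpin 7 minus hairpin 1. Cytosolic enzymes had a median of -0.10 in the hairpin 1 library and -0.31 in the hairpin 7 library. Mitochondrial enzymes had -0.05 in the hairpin 1 library and -0.09 in the hairpin 7 library. In the scramble libraries the corresponding spread was small, with a median absolute difference of 0.04 over the 38 genes, against 0.16 between the hairpins. All genes tested also differed more between the hairpins, with 0.07 between the scramble libraries and 0.23 between the hairpins. Their median was 0.01 in the hairpin 1 library and -0.03 in the hairpin 7 library. The sum over all gene rows was at 102% of scramble with hairpin 1 and 92.0% with hairpin 7. The hairpin differences given here were not rescaled to these sums, and the part of the sums in them was not tested. Hairpin 7 left more NIPBL transcript than hairpin 1. MYC, the transcription factor named in the study's title, was at 77.5 FPKM with hairpin 1 and 47.5 FPKM with hairpin 7, against 82.9 and 82.0 FPKM in the scramble libraries, and its part in the synthetase values was not tested. Each hairpin is 1 library, so a difference between hairpins has no replicate check.

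**Figure D4:**
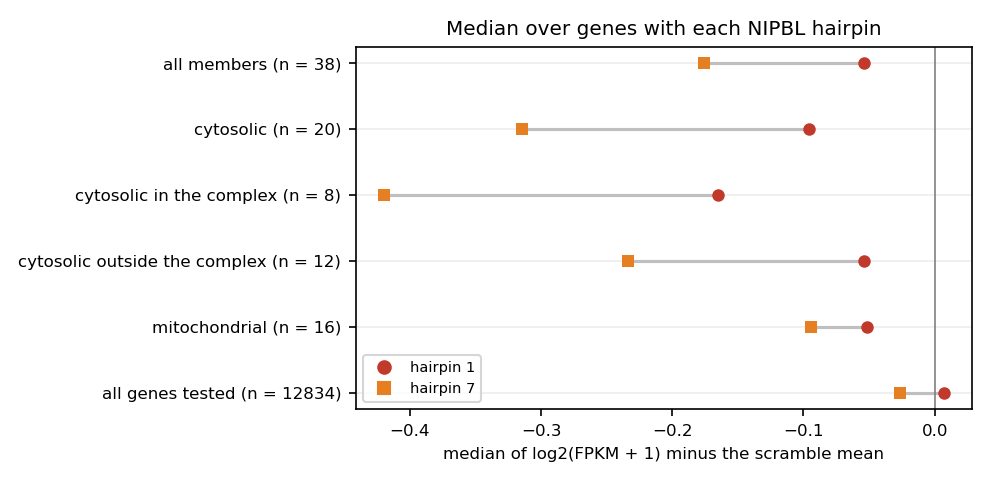
Median over genes of log2(FPKM + 1) minus the scramble mean, with hairpin 1 (circles) and hairpin 7 (squares), by class. With hairpin 7 the median was -0.42 for cytosolic enzymes of the complex, -0.23 for those outside it and -0.09 for mitochondrial enzymes. Over all genes tested it was -0.03. With hairpin 1 the medians of these classes were -0.16, -0.05 and -0.05, against 0.01 for all genes tested. The values were not rescaled to the library sums.

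The promoters were searched for 2 motifs, the ATF4-type amino acid response element TGATGNAA and the E-box CACGTG, which MYC and its partner MAX are known to bind, on both strands, and neither motif contains the other. RefSeq promoter windows (GRCh38.p14, 250 bases before to 50 after the gene start) matched 32 of the 38 genes by current symbol. TGATGNAA was found in 6 of 16 cytosolic windows and 1 of 14 mitochondrial ones, against 3.67% of all 27305 windows and 2.53% of the 15843 of protein-coding genes. All 6 cytosolic genes held the form TGATGCAA or its reverse complement TTGCATCA, which 0.923% of all windows held. Those sites are given as 30 bases on the gene's own strand, 5′ to 3′, with the motif in capitals, because the motif was more frequent in the cytosolic windows than in the table; YARS2 held TGATGGAA.
TARS (chr5:33440956-33440985, plus strand): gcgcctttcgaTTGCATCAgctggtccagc
MARS (chr12:57488053-57488082, plus strand): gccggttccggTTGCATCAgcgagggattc
IARS (chr9:92293692-92293721, minus strand): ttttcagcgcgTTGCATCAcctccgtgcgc
CARS (chr11:3057407-3057436, minus strand): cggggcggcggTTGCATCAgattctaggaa
AARS (chr16:70289675-70289704, minus strand): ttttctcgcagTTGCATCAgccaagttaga
NARS (chr18:57621804-57621833, minus strand): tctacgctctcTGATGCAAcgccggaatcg
YARS2 (chr12:32756076-32756105, minus strand): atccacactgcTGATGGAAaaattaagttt

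Counted from the gene start as +1, the first base of the motif lay at 3 in TARS, -4 in MARS, -13 in IARS, -2 in CARS, 15 in NARS, -187 in AARS and -197 in YARS2. Genes with the same letters had different values. TARS, MARS and IARS had log2 changes of -0.49, -0.39 and -0.29, and CARS, AARS and NARS of -0.08, -0.05 and -0.03. Their median was -0.19, against -0.18 for the 10 cytosolic genes whose window held no TGATGCAA, and neither FARSB nor LARS was in the first group (LARS had no window). The E-box was found in 4 of 32 windows (12.5%), those of IARS, MARS2, EARS2 and CARS2, against 7.43% of all windows and 8.88% of those of protein-coding genes. Log2 changes of these 4 genes ran from -0.37 for MARS2 to 0.35 for CARS2, the highest of all 38. The windows of these extremes are shown next with the E-box in capitals, which began at -11 in MARS2 and -3 in CARS2.
MARS2 (chr2:197705346-197705375, plus strand): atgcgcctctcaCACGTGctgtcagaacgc
CARS2 (chr13:110706501-110706530, minus strand): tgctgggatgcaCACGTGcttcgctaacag

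In the amino acid response itself, 26 of 29 listed genes were tested, with ALDH1L2, NUPR1 and VLDLR under the filter. Of the 26, 1 rose and 1 fell (limma), where 1.45% and 1.11% of all genes tested did. Before adjustment 8 were lower and 3 higher at p under 0.05 (limma), where 12.8% and 13.6% of all genes fell in those classes. SLC7A11, the cystine importer, rose to 23.7 and 25.2 FPKM with hairpins 1 and 7, against 13.1 and 13.5 FPKM in the scramble libraries (log2 change 0.83 ± 0.10, SE, limma, adjusted p = 0.0334). SLC38A2, an importer of neutral amino acids that amino acid shortage is known to induce, fell to 163 and 172 FPKM with hairpins 1 and 7, against 282 and 279 FPKM in the scramble libraries (log2 change -0.74 ± 0.09, SE, limma, adjusted p = 0.0388). ATF4, named after its values were seen, was at 226 and 185 FPKM with hairpins 1 and 7, against 279 and 270 FPKM in the scramble libraries (log2 change -0.42 ± 0.13, SE, limma, adjusted p = 0.133). The one-carbon enzyme genes MTHFD2 and SHMT2, also known ATF4 targets, were at -0.43 and -0.47 on the log2 scale, neither of them past the threshold. The list's median was -0.16, with 17 genes below 0 and 9 above, where 51.7% of all genes tested lay below 0. The members that passed both encode amino acid transporters and passed in opposite directions. Both calls were lost when scramble 1 or scramble 2 was left out.

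Other steps around tRNA charging gave 0 genes that passed in 3 lists (limma), where 2.56% of all genes tested passed. Of 24 genes of tRNA processing, modification and proofreading, 19 lay below 0 with a median of -0.15, and before adjustment 5 were lower and 2 higher at p under 0.05, where 12.8% and 13.6% of all genes fell in those classes. POP1, a subunit of the nuclease that trims the 5′ end of tRNA, was at 7.90 and 7.62 FPKM with hairpins 1 and 7, against 12.4 and 11.95 FPKM in the scramble libraries (log2 change -0.59 ± 0.11, SE, limma, adjusted p = 0.0644). WDR4, a partner of the tRNA methyltransferase METTL1, had a log2 change of -0.61, ELAC2, which trims the 3′ end, of -0.38, and LAGE3, a subunit of the complex that makes a modified adenosine in tRNA, of 0.39. Of 9 elongation factor genes 8 lay below 0 with a median of -0.24, and before adjustment 2 were lower at p under 0.05, where all genes had 51.7% below 0 and 12.8% lower. TUFM, which brings charged tRNA to the mitochondrial ribosome, was at 96.2 and 74.5 FPKM with hairpins 1 and 7, against 115 FPKM in both scramble libraries (limma, adjusted p = 0.151). EEF1D, EEF1B2 and GFM2 had log2 changes of -0.34, -0.32 and -0.32. The 7 genes of indirect and special charging routes had a median of -0.15 and 0 at an unadjusted p under 0.05, with SEPSECS, of selenocysteine synthesis, at -0.33, GATC, of the mitochondrial glutamine route, at -0.15, its partner GATB (PET112 in the table) at 0.15 and PSTK at -0.30.

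Beside WARS, the interferon-responsive genes were read as a list of 18, of which 15 were tested, with a median of 0.09. Of the 15, 1 rose and 0 fell (limma), where 1.45% and 1.11% of all genes tested did. Before adjustment 3 were lower and 4 higher at p under 0.05 (limma), where 12.8% and 13.6% of all genes fell in those classes. IRF9, a transcription factor of the interferon response, rose to 40.9 and 34.2 FPKM with hairpins 1 and 7, against 8.39 and 10.1 FPKM in the scramble libraries (log2 change 1.91 ± 0.15, SE, limma, adjusted p = 0.0161). STAT2 had a log2 change of 0.62, while ICAM1 and IRF1, the second of them named after its values were seen, had -0.57 and -0.63, and none of these 3 passed. The part of interferon signalling in the WARS values was not tested.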

How the data were processed

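RNA from 4 NUGC3 libraries was measured as FPKM in a table deposited by the authors, and the submitters' processing notes list STAR and RSEM with no version. Build, annotation and strand setting were not given in the sources used here, and read depth is unknown. Of 344810 rows, 53777 had an Ensembl identifier and were used. The tested values were log2(FPKM + 1) for genes whose mean reached 1 FPKM across the 4 libraries, fitted with limma 3.58.1 (lmFit and eBayes with a mean trend) in R 4.3.3, with 2 residual degrees of freedom. P-values were adjusted (Benjamini-Hochberg) over 12834 genes. The fit was also run on simulated data with independent noise whose spread was shuffled over genes. That run does not bear on the calls in these data. With 2 libraries a group the exact permutation test reaches p = 0.333 at best, so it was not used. Promoters came from RefSeq (GRCh38.p14), matched through current symbols.

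The members, lists and motifs were chosen with earlier results of these data known. Named were NIPBL, the 5 highest and 5 lowest members by log2 change, WARS and WARS2, the genes of the 3 widest and 3 smallest differences between enzymes for 1 amino acid, the 3 members that differed most between hairpins, and up to 4 genes of each list by p, of which 1 is not reported here. Members outside that rule (KARS, AIMP2, CARS, FARSA and others given by a single value) were named after their values were seen. Alternatives were another pseudocount, no filter, quantile normalization, rescaling to a common sum, no mean trend, averaged scramble libraries and each library left out.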

Additional observations from a re-analysis of the deposited data

How the results depend on the processing

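Each hairpin is 1 library and the depth is unknown, which limits every result here. NIPBL kept its direction under every alternative, with log2 changes from -1.57 to -1.27 when a library was left out, but did not pass with averaged scramble libraries (-1.42, limma, adjusted p = 0.267), among gene rows above 0 FPKM in a library (-1.42, adjusted p = 0.118, an alternative chosen after seeing the data), or without scramble 1 (-1.39) or scramble 2 (-1.44). Genes that passed numbered 328 in the fit as reported, 2574 with no filter, 1 among rows above 0, 0 with averaged scramble libraries (975 at an unadjusted p under 0.05) and 0 to 4532 with a library left out. Members that passed numbered 5 with no filter, a fit in which 53.1% of rows were 0 in every library, and 0 to 19 with a library left out. The cytosolic median ran from -0.31 to -0.10 with a library left out. The mitochondrial median was -0.12 after quantile normalization, -0.043 after rescaling, and -0.12 to -0.038 with a library left out. The sign turned for NARS (0.0042 after quantile normalization, 0.018 after rescaling, and -0.11 to 0.049 with a library left out), LARS2 (-0.017 after quantile normalization, and -0.029 to 0.078 with a library left out), AARS2 (-0.14 to 0.010 with a library left out) and AIMP1 (-0.38 to 0.22 with a library left out). Of 220 values of 20 named members under 11 alternatives, 190 kept direction and call and 8 turned sign. The rest newly passed, all of them with no filter or with a hairpin library left out. In those fits more genes of the whole table passed too, and the cause was not tested. No paired analysis was possible because the labels number no replicates across the groups.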
